A study of Schmidtea mediterranea with 10 samples.

Results

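Cells of the planarian Schmidtea mediterranea that carried a fluorescent label for piwi-1 transcripts were compared with cells of the same labelling that did not carry it. The comparison rests on 2 of the 10 libraries of the series, 1 from the positive and 1 from the negative gate of the cell sorter, so it has no replicate check and no test. All animals were uninjured wild-type worms of the clonal asexual strain CIW-4 (C4), about 160 in all for both labellings and a control without probes, starved for 2 weeks or more. The other 8 libraries come from cells labelled with a pool of probes against the agat transcripts 1 to 3, with 4 agat-negative and 4 agat-positive libraries that the labels call biological replicates. The piwi-1 and agat probes were read in the same dye on separate portions of cells, so an agat-negative cell may or may not be a piwi-1-positive one. Of the 36035 genes in the tables, 32964 had a read in at least 1 of the piwi-1 libraries. The 8146 genes with a mean of 10 CPM or more over both libraries (CPM, counts scaled to the same total of counts assigned to genes) are described here. The gene just inside this limit had 11.3 CPM in the positive and 8.72 CPM in the negative library, and the gene just outside it 7.21 and 12.8 CPM.

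Planarians regrow lost parts from neoblasts, their dividing stem cells, which are the source of new cells in the adult body. piwi-1 encodes a protein of the PIWI family, whose members bind small RNAs that silence transposable elements, and its transcript is the customary mark of neoblasts. The agat genes encode relatives of the enzyme that opens creatine synthesis and are expressed in late epidermal progenitors, which descend from neoblasts. The sources used here pair gene IDs with names only for these 4 probe targets, so the neoblast label of the gate rests on piwi-1 alone, and other neoblast markers could not be checked. These are bulk libraries, in which fewer cells of a type and less RNA per cell cannot be told apart.

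piwi-1 (SMED30007406) checks the sort and is not a finding. It stood at 1267 CPM in the piwi-1-positive and 199.9 CPM in the piwi-1-negative library, a ratio of 6.34 (95% exact binomial interval 6.18 to 6.50, counting error only). In agat-negative replicates 1 to 4 it stood at 573, 472, 545 and 398 CPM. All 4 agat-negative libraries thus lay between the piwi-1 gates. On the scale of log2(CPM + 1) they lay 0.37 to 0.57 of the way from the negative to the positive gate. In agat-positive replicates 1 to 4 piwi-1 stood at 180, 382, 393 and 309 CPM. All of these but replicate 1 lay between the gates too. The negative gate kept transcript of its own target, and 121 of the 8146 genes, or 1.49%, had a larger ratio between the gates than piwi-1.

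The 3 agat transcripts were less abundant than piwi-1 in both piwi-1 libraries in TPM, the length-scaled measure that allows genes to be compared. agat-1 (SMED30018353) stood at 128 TPM in the positive and 69.3 TPM in the negative library, where piwi-1 stood at 568 and 80.04 TPM. All 3 agat transcripts were higher in the piwi-1-positive than in the piwi-1-negative library. The CPM ratios were 1.58 for agat-1, 1.34 for agat-2 and 1.42 for agat-3. Of all described genes, 24.9%, 32.5% and 30.0% had a larger ratio than these. Against the agat-negative libraries the agat transcripts of both piwi-1 libraries were on the high side. agat-2 (SMED30009513) had 135 CPM in the piwi-1-positive and 101 CPM in the piwi-1-negative library, and 10.9, 43.75, 77.5 and 34.2 CPM in agat-negative replicates 1 to 4. agat-3 (SMED30019154) had 65.5 and 46.0 CPM, against 1.26 to 29.4 CPM in the agat-negative libraries. For agat-2 and agat-3 both piwi-1 libraries lay above all 4 agat-negative ones, from which agat-labelled cells had been sorted away. agat-1 crossed this order once, with 94.6 CPM in agat-negative replicate 3 against 81.2 CPM in the piwi-1-negative library. In all 4 agat-positive libraries the 3 agat transcripts were above both piwi-1 libraries. In agat-positive replicates 1 to 4, agat-2 had 1479, 286, 220 and 1600 CPM, and agat-3 had 725, 146, 119 and 643 CPM.

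**Figure D1:**
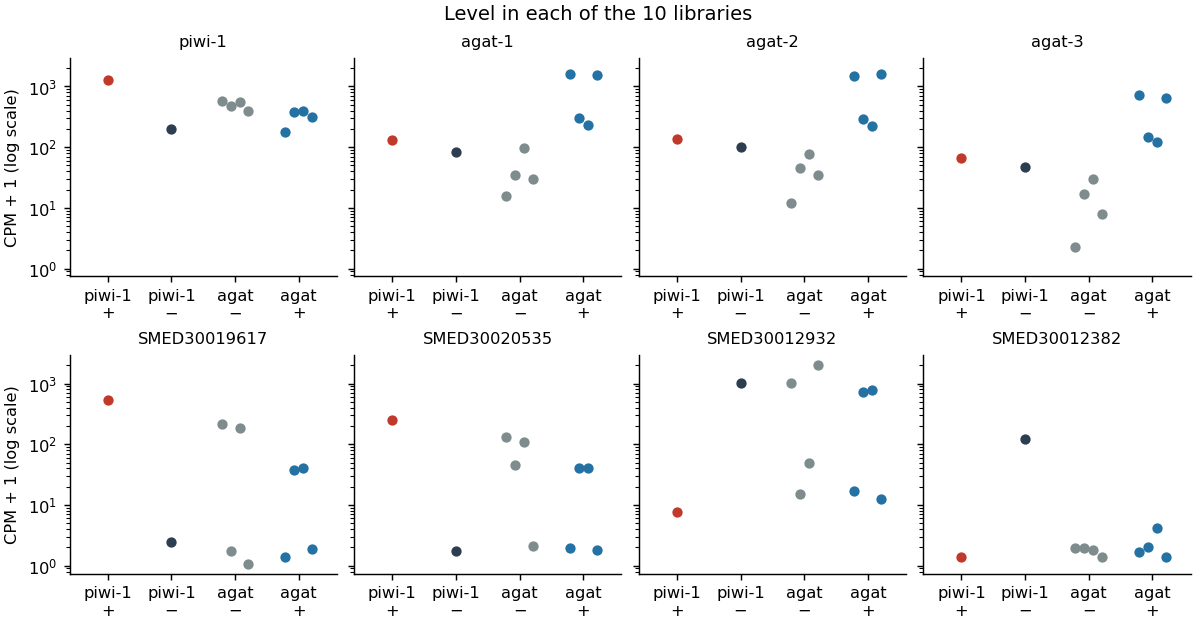
Level of the 4 probe targets (upper row) and of the 2 genes higher and 2 genes lower in the piwi-1-positive library that are described by ID (lower row), as CPM + 1 on a log axis, with 1 point for each of the 10 libraries. piwi-1 in the 4 agat-negative libraries lay between its 1267 and 199.9 CPM in the piwi-1 gates, while SMED30012932 ranged from 14.3 to 2013 CPM over the agat-negative libraries.

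The piwi-1-positive library stood apart from the other 9 libraries. Over the 8146 genes its levels had Spearman correlations of 0.698 to 0.745 with the other libraries. The piwi-1-negative library had correlations of 0.80 to 0.955 with the 8 agat libraries, and agat-negative libraries had 0.83 to 0.963 with each other. These correlations run across genes and describe the libraries, since genes are not independent replicates and were chosen by their level in the piwi-1 pair. The positive library also had a larger share of unmapped reads, 29.7% against 19.7% in the negative library. The agat libraries had 21.1% to 34.5%, with the highest share in agat-negative replicate 4. Assigned counts were 35081410 and 35905606 in the piwi-1 libraries and 35688059 to 51821158 in the agat libraries. In the positive library 17741 genes reached 1 CPM, against 15903 in the negative library and 15994 to 17380 in the agat libraries. Their part in the results below was not tested.

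The distance between the piwi-1 gates was larger than that between libraries of 1 agat gate. The median absolute deviation of the log2 differences over genes is taken about their median, so that a scaling factor of a whole library largely drops out. It was 0.619 for the piwi-1 pair, 0.150 to 0.515 for the 6 pairs of agat-negative libraries and 0.0734 to 0.295 for the 6 pairs of agat-positive libraries. agat-negative replicate 4 was in each of the 3 widest agat-negative pairs, and without it the highest value was 0.179. The piwi-1-positive library was 0.532 to 0.601 from the agat-negative libraries, and the piwi-1-negative library 0.207 to 0.575, or up to 0.254 without agat-negative replicate 4. The labels do not say whether the piwi-1 and agat libraries came from the same sort, so sort and label cannot be told apart in these distances.

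**Figure D2:**
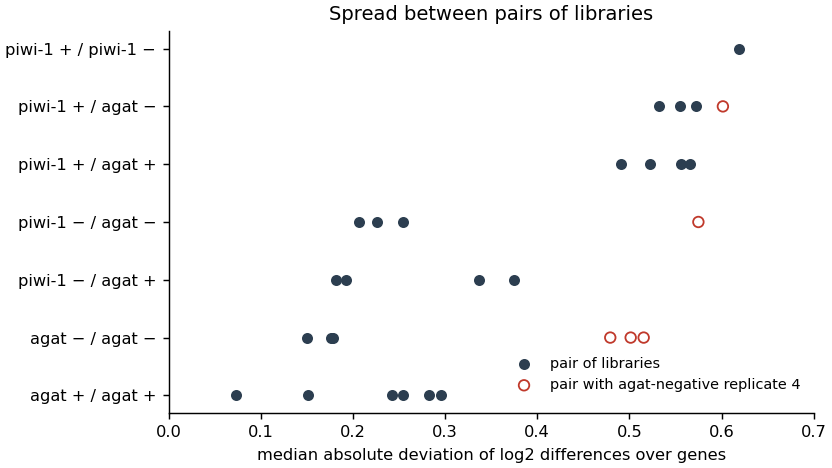
Median absolute deviation of the log2 differences over 8146 genes (horizontal axis) for each pair of libraries, grouped by the gates that the pair joins, with open circles for pairs that hold agat-negative replicate 4. The piwi-1 pair has the highest value, 0.619, and every pair with the piwi-1-positive library lies at 0.491 or more.

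Between the gates, more of the large differences were on the higher side. At least 2-fold, 1178 genes (14.5%) were higher and 769 (9.44%) lower in the positive gate, on the scale of log2 ratios of CPM + 1. At least 4-fold, 283 genes (3.47%) were higher and 56 (0.687%) lower, and at least 16-fold, 20 (0.246%) were higher and 11 (0.135%) lower. In either direction the piwi-1 pair had 1947, 339 and 31 genes past 2-fold, 4-fold and 16-fold. Pairs of agat-negative libraries had 89 to 1895, 42 to 218 and 14 to 47. Without agat-negative replicate 4 these pairs had 89 to 190 at 2-fold and 42 to 92 at 4-fold. At 16-fold, libraries of the same agat gate thus differed in about as many genes as the piwi-1 gates did. The quartiles of the ratios were -0.61 and 0.65 around a median of -0.05. The excess of higher genes at 2-fold turned with the scaling, and the excess at 4-fold did not. With TMM factors, which assume that most genes do not differ, the median was -0.30, and 801 genes were higher and 1525 lower at 2-fold but 211 and 93 at 4-fold. At 16-fold it gave 11 and 12. In the authors' TPM values, 1178 of the 1178 genes 2-fold higher and 768 of the 769 genes 2-fold lower kept their direction. These values come from the same 2 libraries. Past 2-fold in TPM were 1126 of the 1178 higher and 564 of the 769 lower genes.

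The 4 agat-negative libraries served as a reference for the spread between libraries. For 2040 genes (25%) the piwi-1-positive library was higher by more than the whole range of the agat-negative libraries, and for 1461 genes (17.9%) it was lower by more than that range. Without agat-negative replicate 4 these counts were 2982 and 3151, and with the agat-positive libraries as the reference they were 2778 and 2305. With TMM factors 1437 genes were higher and 2525 lower by more than the range, and with median-of-ratios factors 1612 and 2246, so the excess of higher genes turned with either scaling and also without agat-negative replicate 4. Of the 283 genes at least 4-fold higher, 278 exceeded the range, and of the 56 at least 4-fold lower, 40 did. The range itself reached 4-fold in 4.10% of all described genes, so genes chosen as 4-fold apart mostly exceed it by selection. A range of 4 libraries is narrow for some genes by chance, so these counts are descriptions and not calls.

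**Figure D3:**
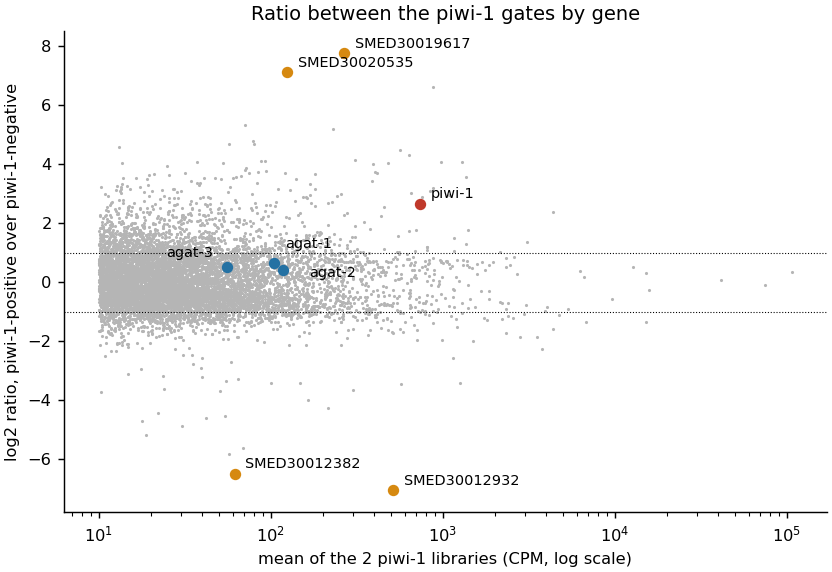
Log2 ratio of CPM + 1 of the positive over the negative piwi-1 gate (vertical axis) against the mean CPM of both (log axis), with 1 grey point for each of 8146 genes, dotted lines at 2-fold, and the 8 genes described by name or ID in colour. piwi-1 lies at 2.66, the 3 agat transcripts between 0.42 and 0.65, and the extremes at 7.76 and -7.04.

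The agat-negative libraries, which the ratios did not use, gave another reading of the same genes. Of the 1178 genes at least 2-fold higher, 558 (47.4%) had all 4 agat-negative libraries between the gates, as piwi-1 did, called a graded arrangement here, where 14.3% of all described genes did. Of the 769 genes at least 2-fold lower, 148 (19.2%) did. Genes with a small difference between the gates leave little room between them, so the share over all genes is low by construction. Genes chosen for a large difference between the gates leave more room, so the shares among them are raised by the choice. The contrast between higher and lower genes also turned with the scaling, to 261 of 801 and 648 of 1525 genes with TMM factors. Without agat-negative replicate 4 it kept its direction, with 805 of the 1178 and 238 of the 769 genes.

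Among the higher genes the graded arrangement was frequent at moderate ratios and rare at large ones. It held for 49.2% of the 624 genes with a log2 ratio from 1 to 1.5, for 54.6% of 271 genes from 1.5 to 2, and for 46.8% of 203 genes from 2 to 3. From 3 to 4 it held for 5 of 60 genes, and at 4 or more for 3 of 20. The opposite arrangement, with all 4 agat-negative libraries below the piwi-1-negative library, went from 5.45% through 12.5% and 20.2% to 36.7% of the 60 genes and 7 of the 20, beside 12.5% of all described genes placed beyond the negative gate in either direction. TMM scaling kept the low graded share between 3 and 4, at 3 of 48 genes, with 72.9% of them below the negative gate. At 4 or more it gave 4 of 11 graded genes. Without agat-negative replicate 4 the graded shares were higher in every bin of higher genes, at 76.0%, 72.3% and 59.1% up to a log2 ratio of 3, then 18.3% (11 of 60 genes) and 4 of 20. The drop at 3 was thus seen with and without that library. The bin at 4 or more is thin.

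**Figure D4:**
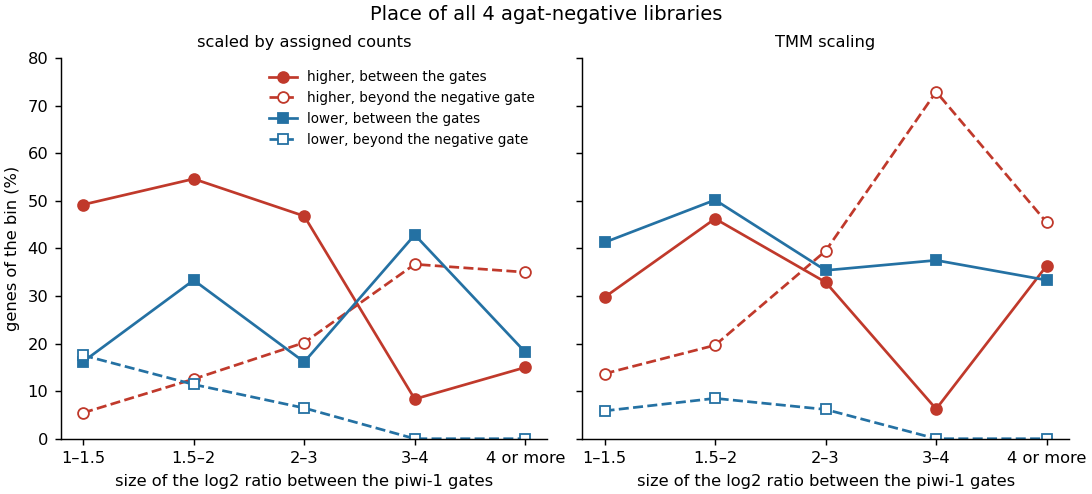
Share of genes (vertical axis) whose 4 agat-negative libraries all lie between the piwi-1 gates (solid lines) or all beyond the negative gate (dashed lines), by the size of the log2 ratio between the gates (horizontal axis), for genes higher (red circles) and lower (blue squares) in the piwi-1-positive library, with counts scaled by assigned counts (left) and with TMM factors (right). For higher genes the graded share drops from 46.8% at 2 to 3 to 8.33% at 3 to 4 in the left panel and from 32.9% to 6.25% in the right one, and the bins of lower genes at 3 to 4 and at 4 or more hold 11 to 16 genes.

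Graded genes share the order of libraries seen for piwi-1 by selection. The 103 genes that were at least 4-fold higher with the agat-negative libraries between the gates had a median level of 52.1 CPM in the piwi-1-positive and 8.97 CPM in the piwi-1-negative library. Their median was 19.6, 17.8, 19.0 and 17.8 CPM in agat-negative replicates 1 to 4, so the agat-negative libraries differed little in it. In agat-positive replicates 1 to 4 it was 7.70, 14.5, 14.3 and 11.1 CPM. Of all 283 genes at least 4-fold higher, 34 (12.01%) had their agat-negative median 0.37 to 0.57 of the way between the gates, the span that piwi-1 itself covered. Of the 1178 genes at least 2-fold higher, 282 (23.9%) did, and of the 769 at least 2-fold lower, 66 (8.58%) did. Of the 121 genes with a larger ratio than piwi-1, 17 were graded and 39 had all agat-negative libraries below the negative gate. Over all described genes, 14.3% were graded and 12.5% lay beyond the negative gate in either direction.

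Most genes with the larger ratios were abrupt, that is, high in the piwi-1-positive library and at about the level of the negative gate elsewhere. The limits used to describe them were chosen after the values were seen. Of the 80 genes at least 8-fold higher, 70 had all 8 agat libraries at least 4-fold below the piwi-1-positive library, and these are called abrupt here. Their median was 112 CPM in the piwi-1-positive and 7.83 CPM in the piwi-1-negative library. In agat-negative replicates 1 to 4 it was 7.59, 7.36, 6.26 and 4.15 CPM, and in agat-positive replicates 1 to 4 it was 5.34, 5.15, 5.19 and 4.42 CPM. The agat-negative median was within 2-fold of the piwi-1-negative library for all 70 genes and below it for 59. Only 1 of the 70 had all 4 agat-negative libraries between the gates, the arrangement of piwi-1, whose level there was 398 to 573 CPM against 199.9 CPM in the piwi-1-negative library. The limit on the agat libraries leaves out genes with agat libraries near the positive gate, so these counts follow in part from it. A gene can also pass the mean of 10 CPM through the positive library alone. In the negative library the median of the 70 genes, 7.83 CPM, was under that value. A high level in the positive library and a low one in the negative library thus follow in part from this filter too. Of all 80 genes, 8 were graded, and for 73 the agat-negative median was within 2-fold of the piwi-1-negative library. The high level of the 70 genes was seen in a single library, which had 29.7% unmapped reads. The share of unmapped reads was higher, at 34.5%, in agat-negative replicate 4, where the median of these genes was 4.15 CPM. The part of the piwi-1-positive library in their ratios was not tested.

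The other 10 of the 80 genes were higher in some agat libraries too. In 7 of them all 4 agat-negative libraries lay between the gates, and in 6 the agat-negative libraries spanned 4-fold or more. Their median was 39.1 CPM in the piwi-1-positive and 1.87 CPM in the piwi-1-negative library, and 8.25, 9.69, 18.6 and 3.06 CPM in agat-negative replicates 1 to 4. They include the genes with the 4 largest ratios.

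By share of counts the abrupt genes were a small part of each library. The 70 genes held 2.39% of assigned counts in the piwi-1-positive and 0.182% in the piwi-1-negative library, 0.0642% to 0.161% in the 4 agat-negative libraries and 0.0831% to 0.114% in the 4 agat-positive ones. The 283 genes at least 4-fold higher held 5.67% and 0.713%, against 0.872 ± 0.193% in agat-negative and 0.602 ± 0.105% in agat-positive libraries (SD, n = 4). The 1178 genes at least 2-fold higher held 13.7% and 3.85%, against 5.15 ± 0.24% in agat-negative libraries. The 769 genes at least 2-fold lower held 6.72% of the piwi-1-positive and 18.1% of the piwi-1-negative library, and 16.8 ± 1.39% of agat-negative libraries. In both directions the piwi-1-negative library was thus nearer to the agat-negative libraries than the positive one was, although the genes were chosen for a difference between the gates, which alone would set both gates apart.

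The largest ratios of all belonged to genes that varied almost as much between agat libraries. SMED30019617 had the highest ratio, with 531 CPM in the piwi-1-positive and 1.45 CPM in the piwi-1-negative library, a ratio of 366 (95% exact binomial interval 279 to 491). In agat-negative replicates 1 to 4 it had 214, 0.756, 182 and 0.0827 CPM, and in agat-positive replicates 1 to 4 it had 0.402, 37.1, 40.1 and 0.898 CPM. The agat-negative libraries alone spanned 7.64 log2 units, close to the 7.76 between the gates. In the authors' TPM values this gene is listed at 0 in the piwi-1-negative library, where 52 reads were counted.

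SMED30020535 had the highest ratio among graded genes, with 247 and 0.78 CPM in the piwi-1 gates, a ratio of 317 (95% exact binomial interval 219 to 477). It had 129, 44.6, 110 and 1.13 CPM in agat-negative replicates 1 to 4, and 0.969, 39.6, 40.3 and 0.837 CPM in agat-positive replicates 1 to 4. Both genes were high in the piwi-1-positive library and in agat-negative replicates 1 and 3, and low in the piwi-1-negative library, agat-negative replicate 4 and agat-positive replicates 1 and 4. agat-positive replicates 2 and 3 were in the middle for both genes. For the genes ranked 3 and 4, agat-negative replicate 2 was instead among the high libraries, at 781 CPM beside 1309 and 1509 CPM in replicates 1 and 3 for the one, and at 121 CPM beside 129 and 127 CPM for the other. agat-negative replicate 4 was low for both, at 23.0 and 3.89 CPM.

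The 20 genes at least 16-fold higher thus held variable and steady ones. In 7 of them the agat-negative libraries spanned 4-fold or more, and these 7 included the 4 largest ratios. In the other 13 the agat-negative libraries spanned under 4-fold, and none of the 8 agat libraries exceeded 7.90% of the level in the piwi-1-positive library. The ratios of these 13 genes ran from 16.7 to 39.5, and their levels in the piwi-1-positive library from 26.6 to 2453 CPM. A span of 4-fold or more over the agat-negative libraries was seen in 334 of all 8146 genes, or 4.10%.

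Genes with the most negative ratios were mostly variable ones. SMED30012932 had the lowest log2 ratio of CPM + 1, -7.04, with 6.73 CPM in the piwi-1-positive and 1019 CPM in the piwi-1-negative library, 151-fold lower (95% exact binomial interval 133 to 173). Without the pseudocount, SMED30012382 and another gene had lower CPM ratios. SMED30012932 had 1003, 14.3, 49.0 and 2013 CPM in agat-negative replicates 1 to 4, and 16.2, 734, 774 and 11.7 CPM in agat-positive replicates 1 to 4. The high and the low agat libraries were on either side of a wide gap within both agat gates. Of the 11 genes lower by 16-fold or more, 8 spanned 4-fold or more over the agat-negative libraries, and in 5 that span was as large as the ratio between the gates. A span of 4-fold or more over the agat-negative libraries was seen in 24 of the 56 genes at least 4-fold lower, against 15 of the 283 at least 4-fold higher.

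SMED30012382 had the lowest log2 ratio of CPM + 1, -6.50, among the genes whose agat-negative libraries lay between the gates, and it was high in a single library. It had 0.371 CPM in the piwi-1-positive and 123 CPM in the piwi-1-negative library, 331-fold lower (95% exact binomial interval 193 to 622). It had 0.953, 0.922, 0.83 and 0.414 CPM in agat-negative replicates 1 to 4, and 0.685, 1.00, 3.20 and 0.388 CPM in agat-positive replicates 1 to 4. All 8 agat libraries were therefore near the piwi-1-positive library, and the piwi-1-negative library was the one that differed.

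**Figure D5:**
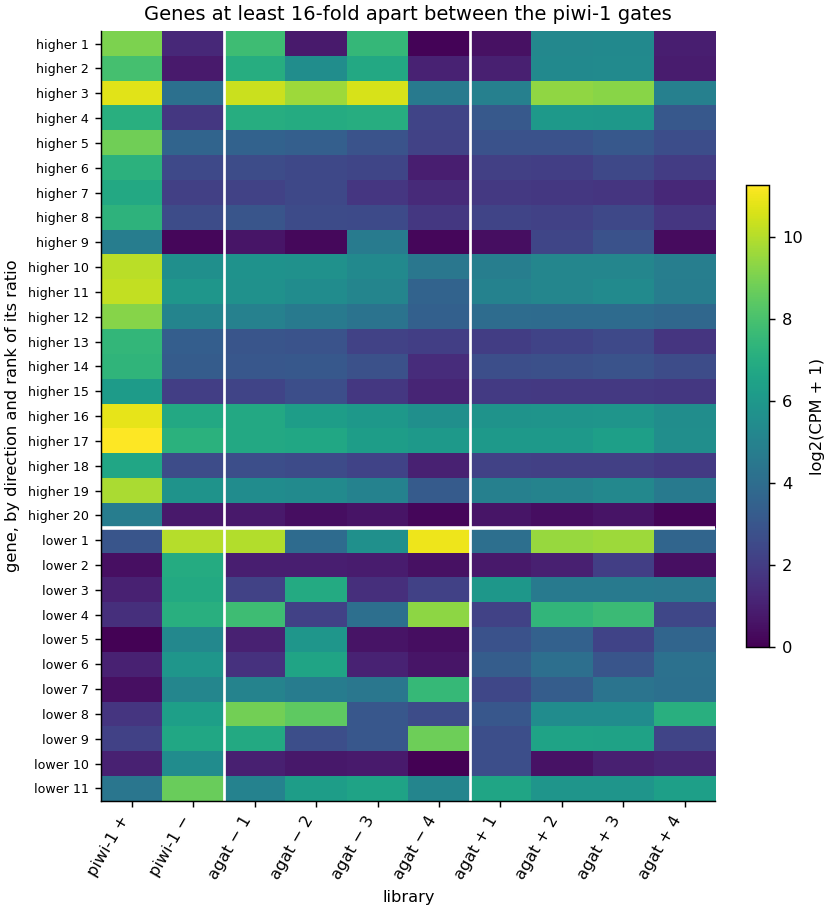
Level, as log2(CPM + 1) in colour, of the 20 genes at least 16-fold higher in the positive gate and the 11 genes lower by as much (rows, by rank of the ratio) in each of the 10 libraries (columns). Ranks 1 to 4 and 9 of the higher genes and 8 of the 11 lower genes vary widely over the agat libraries, while most other higher genes are high in the piwi-1-positive column alone.

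The positive library was also set against the agat libraries. Of the 283 genes at least 4-fold higher than in the piwi-1-negative library, 245 (86.6%) were also at least 2-fold higher in the piwi-1-positive library than in each of the 4 agat-negative libraries, and 245 were so against all 8 agat libraries. Of the 56 genes at least 4-fold lower, 25 (44.6%) were at least 2-fold lower than in each agat-negative library and 17 than in all 8. With TMM factors the shares against the agat-negative libraries were 91.0% of 211 and 47.3% of 93 genes. The piwi-1-positive library enters both sides of this comparison, so it is a second reading of the same positive library and not a replicate of it. The choice of genes raises these shares. Over all described genes, 697 to 1585 were at least 2-fold higher in the piwi-1-positive library than in a single agat-negative library. At least 2-fold lower were 780 to 1110. The share of all described genes against every agat-negative library at once was not computed.

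By level and apparent length the shares moved as follows. The share of genes at least 2-fold higher was 16.6% at a mean of 10 to 20 CPM and 13.0% at 500 CPM or more, and the share at least 2-fold lower was 8.26% and 19.1%. At 4-fold the higher share was instead larger at the high level, 2.93% and 6.05%, and the lower share was 0.751% and 2.33%. Apparent length was taken as counts per unit of TPM. Genes were put in 5 equal groups by it. The group with the shortest apparent length had a median log2 ratio of 0.11 and 18.1% of genes at least 2-fold higher, against -0.12 to -0.04 and 12.3% to 15.5% in the other groups.

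Of the 32964 genes with a read, 2971 were read in the piwi-1-positive library alone and 2013 in the piwi-1-negative library alone, most of them at under 1 CPM. At 1 CPM or more in the piwi-1-positive library, 153 genes had 0 counts in the piwi-1-negative library, which allows up to 0.0836 CPM there (3 counts). The highest of these stood at 17.0 CPM, and 60 of the 153 had counts in all 4 agat-negative libraries. In the reverse direction 38 genes at up to 3.09 CPM had 0 counts in the piwi-1-positive library, which allows up to 0.0855 CPM, and 28 of them had counts in all 4 agat-negative libraries.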

How the data were processed

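Per the labels' protocols, worms were dissociated and fixed in ACME (acetic acid and methanol), labelled by hybridization chain reaction, sorted, and sequenced after SMART-seq v4 amplification of polyadenylated RNA, which carries no molecular identifiers. Intervals therefore cover counting error of reads only. The authors deposited raw read counts per gene and, in another table, TPM values. STAR 2.7.10b and RSEM 1.3.1 are named, per the submitters' processing notes. The build, the annotation and the strand setting used are not given in those notes or the labels. The 4 rows that name no gene held 31.9% of the piwi-1-positive and 22.8% of the piwi-1-negative reads and were left out. CPM were computed from assigned counts. Ratios are log2((CPM + 1)/(CPM + 1)), without a test. The range of log2(CPM + 1) over the 4 agat-negative libraries was the spread reference. The named genes are the 4 probe targets and, in each direction, the largest ratio of all and the largest with the agat-negative libraries between the gates. Other settings used TMM factors of edgeR 4.0.16, size factors by the DESeq2 1.42.0 method, TPM, other pseudocounts, other filters and other references. The functions were tested on simulated data in which 200 genes differed (Python 3.11.15, pandas 2.3.3, R 4.3.3). Genes and lists were chosen with earlier results of these data known.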

Additional observations from a re-analysis of the deposited data

Results flagged for a closer look

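In 38 groups of 4 libraries, 2 values lay far from the other 3 of their group, which is about what chance gives at 1 in 20 groups. The 1178 genes at least 2-fold higher in the piwi-1-positive library held 4.04% of the counts of agat-positive replicate 1, against 4.41% to 4.43% in the other agat-positive libraries. The 769 genes at least 2-fold lower held 18.9% of the counts of agat-negative replicate 4 and from 15.9% to 16.4% of those of its 3 fellow libraries.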

How the results depend on the processing

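No paired analysis was possible because the piwi-1 comparison has 1 library per gate and comes from no test. With 1 library per gate, no setting can show how far the ratios would move between sorts, and depth limits only ratios of genes at few counts. Counts of higher and of lower genes moved by over 1.5 times with the filter, with a pseudocount of 10 and with the scaling, and counts that use a reference moved also without agat-negative replicate 4 and with the agat-positive reference.

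The median log2 ratio of -0.05 became -0.30 with TMM factors, -0.20 with median-of-ratios factors, 0.051 in TPM and -0.034 with a pseudocount of 10. Filters of 1 and 50 CPM gave 0.11 and -0.10, and no filter gave 0.080. TMM gave 1525, 93 and 11 for genes 2-fold lower, 4-fold lower and 16-fold higher, and median-of-ratios 1217 for 2-fold lower and 11 for 16-fold higher. A pseudocount of 10 gave 631 higher and 336 lower at 2-fold, 103 and 27 at 4-fold, and 6 and 1 at 16-fold. A mean CPM of 1 or more gave 3145 and 1489 at 2-fold and 526 and 106 at 4-fold. A mean CPM of 50 or more gave 315 and 272, then 105 and 22, and 6 for 16-fold lower. With no filter the counts were 3595 and 1582, then 526 and 106. Leaving the 10 most abundant genes out of the column sum moved no count by over 1.5 times.

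Genes beyond the reference range numbered 4572 higher and 2403 lower at a mean CPM of 1 or more, 678 and 558 at 50 or more, and 9015 and 3778 with no filter. TMM gave 1437 and 2525 and median-of-ratios factors 1612 and 2246. The lower count was 2305 with the agat-positive reference. Leaving out 1 agat-negative library gave 2144 to 2982 higher and 1606 to 3151 lower, the largest without replicate 4. Genes with the reference between the gates at 2-fold numbered 261 higher and 648 lower with TMM, 317 and 504 with median-of-ratios factors, 303 and 86 with a pseudocount of 10, 1183 and 255 at a mean CPM of 1 or more, 142 and 71 at 50 or more, and 1305 and 278 with no filter. The lower count was 333 with the agat-positive reference. Leaving out 1 agat-negative library gave 568 to 805 higher and 171 to 238 lower.

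The log2 ratio of piwi-1 was 2.41 with TMM, 2.50 with median-of-ratios factors, 2.81 in TPM and 2.60 with a pseudocount of 10. In TMM, median-of-ratios and TPM the ratios were 0.40, 0.50 and 0.88 for agat-1, 0.17, 0.26 and 0.55 for agat-2, and 0.25, 0.34 and 0.75 for agat-3. No single gene named by ID changed direction in the settings tried. At 4-fold higher, counts added after seeing the data, 103 genes had the reference between the gates, against 57 with TMM, 71 with median-of-ratios factors, 19 with a pseudocount of 10, 194 at a mean CPM of 1 or more or with no filter, 30 at 50 or more, 135 without agat-negative replicate 4 and 32 with the agat-positive reference.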
